A study of Mus musculus with 18 samples.

Results

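Expression of 40 genes of mitosis and the G2/M transition was examined in mouse liver tumors and in a tumor cell line. The genes form a list of names, drawn up with earlier results of these data known, and all 40 were found among the 43346 genes of the tumor table. YAP-SY tumors carried myr-AKT, an activated AKT kinase, together with YAP S127A/Y357F, and YAP-S tumors carried myr-AKT with YAP S127A alone. S127A removes a serine through which the Hippo kinases hold YAP in the cytoplasm, and Y357F takes away a tyrosine known as a Src family target. By label a nodule was either CCA, cholangiocarcinoma, which is a cancer of bile duct type, or mixed, which gave the 4 groups YAP-SY CCA (tumors 1, 6 and 8), YAP-S CCA (tumors 3, 4 and 5), YAP-SY mixed (tumors 3, 5 and 9) and YAP-S mixed (tumors 2, 7 and 9), with 3 tumors each. All 12 tumors thus carried myr-AKT and an S127A form of YAP, and no tumor without them was analysed here. The animals' age, sex and strain, the promoters of the introduced genes and the cells that took them up are not given in the sources used here. SB1, a cell line with the genotype label of YAP-S CCA, was sampled 3 times; whether it is a single clone is not given. SY1 cells, labelled as YAP-SY CCA, are not analysed here.

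Cells enter mitosis when the kinase Cdk1, bound to A- and B-type cyclins, is switched on by Cdc25 phosphatases and the Aurora and Polo kinases. The spindle checkpoint holds chromosomes at metaphase until kinetochores are attached, after which Cdc20 and the anaphase-promoting complex destroy the cyclins and free separase. Most of these genes are transcribed in a wave in G2, under the MuvB complex with B-Myb and Foxm1, and are kept low in resting cells such as most hepatocytes of the adult liver by MuvB with pocket proteins and E2F4. In whole tumors, fewer cells of a type and less RNA per cell cannot be told apart, and a lower level here may be either.

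Tumors held 30656499 to 130035221 counts and SB1 samples 25341968 to 30541185. All 40 genes passed the filter on low counts, with at least 35 counts of each in every tumor. Levels are CPM, counts relative to the TMM-scaled library size, in the order of tumor numbers above. The 7 hepatocyte markers (such as Alb and Hnf4a) summed to 129334 to 151712 CPM in YAP-SY CCA tumors and 44288 to 53539 CPM in YAP-S CCA tumors. The 7 bile duct markers (such as Krt19 and Sox9) summed to 2762 to 4198 CPM in YAP-SY CCA tumors and 7585 to 10903 CPM in YAP-S CCA tumors. No marker of either list was at 0 in any tumor. In YAP-SY mixed tumors the bile duct markers summed to 4305 to 16434 CPM, above every YAP-SY CCA tumor, so the histology labels of the YAP-SY model and the bile duct markers did not run in the same direction. In YAP-S mixed tumors they summed to 9497 to 10210 CPM, within the range of the YAP-S CCA tumors. A sum weighs abundant markers most. Taken marker by marker, CCA against mixed in YAP-S had a median log2 fold change of 1.08 (-0.19 to 1.29). None of the 7 passed there at an adjusted p under 0.05 (edgeR). SB1 cells held 2792 to 3242 CPM of bile duct markers and 690 to 1193 CPM of hepatocyte markers, and endothelial markers summed to under 2 CPM in each SB1 sample.

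Many of these genes share promoter elements, and 6 promoters are shown because their genes bear on the comparisons below: Cdk1, Ccnb2, Cdc20, Top2a and Ccnb1 were lower in YAP-SY CCA tumors, while Spc25 did not pass the test there. The stretches, from RefSeq (build GRCm38.p6), run in the direction of each gene from 150 bases before its start to 30 bases after it. Cdk1 lies at chr10:69352883-69353062, Ccnb2 at chr9:70421525-70421704, Cdc20 at chr4:118437314-118437493, Top2a at chr11:99024160-99024339, Ccnb1 at chr13:100786457-100786636 and Spc25 at chr2:69206184-69206363, each on the minus strand. Capitals mark TTTGAA, the core of the cell cycle genes homology region that MuvB binds, and CCAAT, the box of the factor NF-Y, on either strand (TTCAAA and ATTGG on the other strand); no matches overlap in these stretches.
Cdk1: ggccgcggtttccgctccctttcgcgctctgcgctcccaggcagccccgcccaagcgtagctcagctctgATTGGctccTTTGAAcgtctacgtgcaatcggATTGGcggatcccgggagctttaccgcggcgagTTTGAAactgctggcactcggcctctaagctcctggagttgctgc
Ccnb2: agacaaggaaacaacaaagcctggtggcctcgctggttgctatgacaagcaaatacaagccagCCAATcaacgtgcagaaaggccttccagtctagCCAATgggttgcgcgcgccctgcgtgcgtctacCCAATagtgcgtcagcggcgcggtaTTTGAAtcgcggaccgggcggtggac
Cdc20: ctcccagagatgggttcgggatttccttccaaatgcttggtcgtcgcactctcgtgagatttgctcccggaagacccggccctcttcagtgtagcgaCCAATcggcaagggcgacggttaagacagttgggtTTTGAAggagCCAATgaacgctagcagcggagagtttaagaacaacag
Top2a: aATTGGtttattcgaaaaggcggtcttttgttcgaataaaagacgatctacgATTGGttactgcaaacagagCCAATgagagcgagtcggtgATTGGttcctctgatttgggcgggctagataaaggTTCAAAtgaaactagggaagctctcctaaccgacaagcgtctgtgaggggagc
Ccnb1: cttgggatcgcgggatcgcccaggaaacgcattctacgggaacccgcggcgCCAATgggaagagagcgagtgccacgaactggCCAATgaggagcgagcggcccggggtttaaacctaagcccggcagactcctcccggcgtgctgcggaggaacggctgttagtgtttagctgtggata
Spc25: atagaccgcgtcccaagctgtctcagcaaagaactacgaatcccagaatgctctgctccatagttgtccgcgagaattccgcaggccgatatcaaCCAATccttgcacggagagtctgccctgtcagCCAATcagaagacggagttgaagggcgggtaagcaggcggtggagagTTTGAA
The Cdk1 promoter held TTTGAA at 71 and at 15 bases before the start. In Ccnb2 a TTTGAA began at base 5 after the start, with CCAAT boxes at 87, 54 and 21 bases before it. Cdc20 had TTTGAA at 18 bases before the start, and Top2a at 23 bases before it on the other strand. Ccnb1 had CCAAT at 99 and 67 bases before the start and no TTTGAA in the window searched. Spc25 held both elements, with CCAAT at 55 and 23 bases before the start and TTTGAA at base 25 after it. Promoters were listed for 33 of the 40 genes; Ccna2, Aurkb, Cdc25c, Incenp, Kif20a, Tpx2 and Foxm1 were not among them. In the window from 250 bases before to 50 bases after the first listed start, both strands, TTTGAA was present in 25 of 33 genes (75.76%) and in 18.11% of 27025 genes with a listed promoter. CCAAT was present in 26 of 33 (78.79%) and in 37.92% of all genes, and both elements in 22 of 33 (66.67%) and in 7.123% of all genes. Within 50 bases on either side of the start, a window chosen after the positions were seen, TTTGAA was present in 23 of 33 genes (69.7%) and in 4.921% of all genes. Birc5, Mad2l1, Nuf2 and Nusap1 held neither element. These are matches of letters, and whether a factor binds them was not measured.

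Setting YAP-SY CCA against YAP-S CCA asks what losing Y357 does in nodules labelled CCA; of the 4 tumor groups, the YAP-SY CCA tumors held the least bile duct and the most hepatocyte marker RNA. Genes of mitosis were lower in YAP-SY CCA tumors across every role, from the cyclins to cytokinesis. Of the 40 genes, 37 were lower and 0 higher at an adjusted p under 0.05 (edgeR's quasi-likelihood test, Benjamini-Hochberg over 18318 genes), against 20.8% of all genes tested lower and 18.3% higher. The median log2 fold change of the 40 was -1.24, against -0.001 over all genes tested, and the 40 ran from -1.89 in Aurkb to -0.02 in Spc25. The 2 groups did not overlap in 38 of the 40, all lower in YAP-SY, against 28.3% of all genes. Summed over the 40 genes, YAP-SY CCA tumors held 428, 302 and 393 CPM and YAP-S CCA tumors 802, 749 and 916 CPM. The highest YAP-SY CCA tumor thus lay below the lowest YAP-S CCA tumor.

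**Figure D1:**
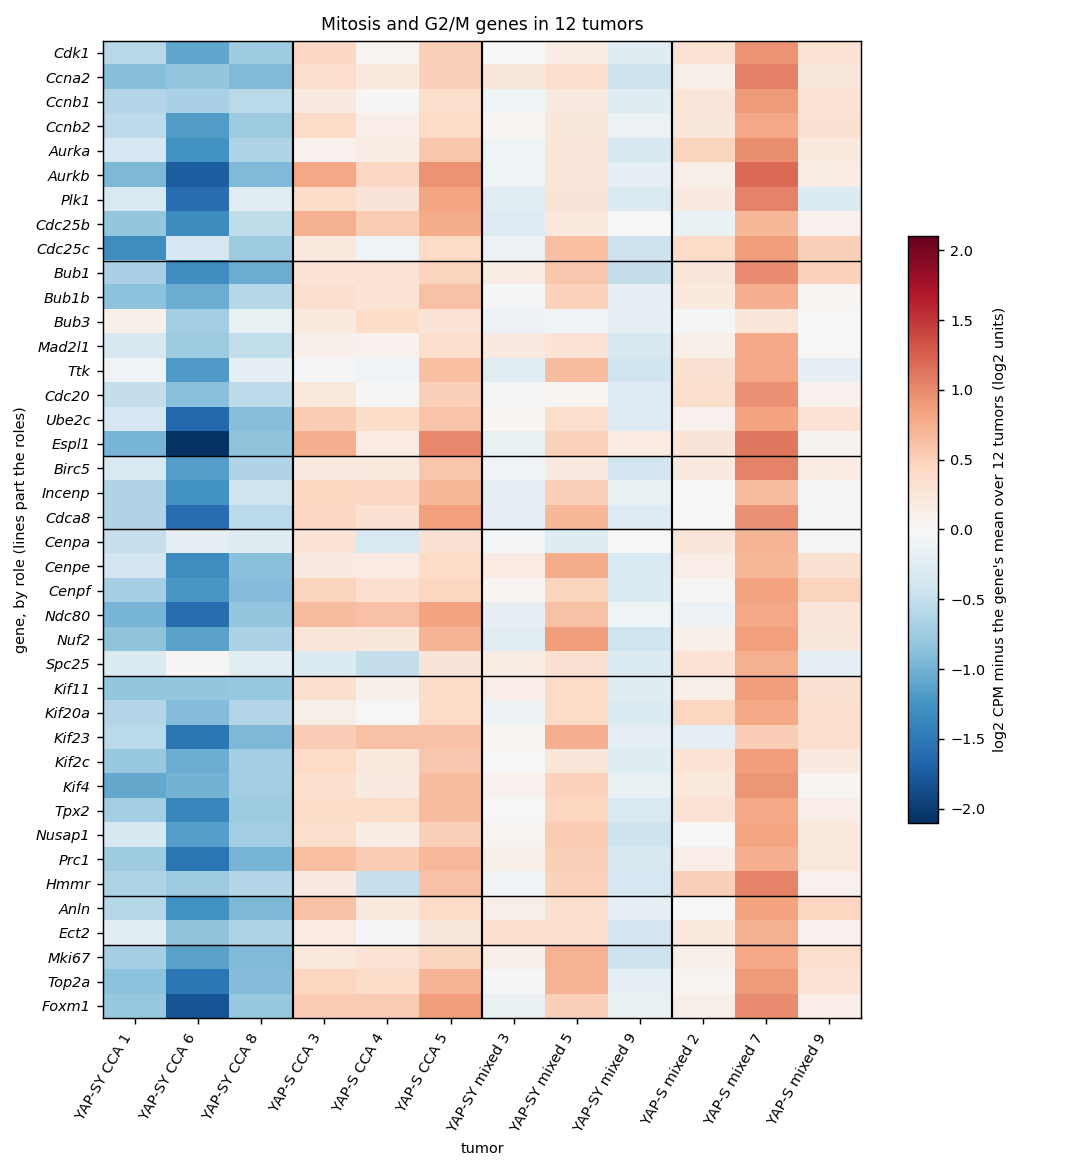
Heat map of log2 CPM of the 40 genes (rows, by role) in the 12 tumors (columns), each minus the gene's mean over the 12 tumors, in log2 units. YAP-SY CCA tumors are blue in nearly every row, with tumor 6 the lowest of the 12 tumors in 34 genes, and YAP-S mixed tumor 7 is the highest of the 12 in 33.

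All 9 kinases and cyclins, Cdc25 genes included, fell (median -1.12 on the log2 scale). Cdk1, the kinase that starts mitosis, had 15.4, 10.8 and 13.8 CPM in YAP-SY CCA, against 31.3, 23.9 and 32.5 CPM in YAP-S CCA (2.19-fold lower, adjusted p 0.00151). Its partner Ccnb1 had 7.64, 7.27 and 7.93 CPM in YAP-SY, against 13.3, 11.9 and 15 CPM in YAP-S (1.76-fold lower, adjusted p 0.0063), the smallest change among the cyclins. Ccnb2, the second B-type cyclin, had 7.11, 4.58 and 6.12 CPM in YAP-SY, against 13.6, 11.4 and 13.8 CPM in YAP-S (2.18-fold lower, adjusted p 0.00155). In all 3 genes every YAP-SY CCA tumor was below every YAP-S CCA tumor. Ccna2, the cyclin of S phase and G2, had 12, 12.5 and 11.7 CPM in YAP-SY, against 28.9, 25.6 and 31.3 CPM in YAP-S (2.37-fold lower, adjusted p 0.0024). Aurkb, the Aurora kinase of the centromere and midzone, changed most of the 40: it had 3.26, 1.9 and 3.31 CPM in YAP-SY, against 11, 8.46 and 12.1 CPM in YAP-S, which is -1.89 ± 0.32 as a log2 fold change with its SE (adjusted p 0.000857). Plk1, the Polo kinase of spindle poles and kinetochores, had 5.57, 2.29 and 5.87 CPM in YAP-SY, against 9.04, 8.38 and 12.2 CPM in YAP-S (2.15-fold lower, adjusted p 0.0349). These groups did not overlap either, and YAP-SY CCA tumor 6 was low in Aurkb and Plk1. The Cdk1-activating phosphatase Cdc25b had 2.61, 1.84 and 3.17 CPM in YAP-SY, against 7.68, 6.68 and 7.91 CPM in YAP-S (2.92-fold lower, adjusted p 0.001). Cdc25c, a related phosphatase at 0.793 to 1.54 CPM in YAP-SY and 1.85 to 2.62 CPM in YAP-S, had an adjusted p of 0.0426. Aurka, the Aurora kinase of spindle poles, was 2.01-fold lower (adjusted p 0.0113).

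Of the 8 genes of the spindle checkpoint and anaphase, 7 fell. Bub1b, the checkpoint protein BubR1, had 7.09, 6.29 and 8.57 CPM in YAP-SY CCA, against 16.3, 15.8 and 19.9 CPM in YAP-S CCA (2.36-fold lower, adjusted p 0.00155). Cdc20, which the checkpoint holds inactive and which activates the anaphase-promoting complex, had 10.5, 8.05 and 10.1 CPM in YAP-SY, against 17.3, 15 and 20.9 CPM in YAP-S (1.85-fold lower, adjusted p 0.00739). Espl1, the separase that cuts cohesin at anaphase, had 2.7, 1.26 and 2.95 CPM in YAP-SY, against 9.07, 5.98 and 10.7 CPM in YAP-S (log2 fold change -1.89 ± 0.37, adjusted p 0.00185). In each of the 3 the groups were apart. Ube2c, the ubiquitin carrier of the anaphase-promoting complex, and the checkpoint kinase Bub1 were 2.59-fold and 2.53-fold lower. Bub3, a checkpoint protein that carries Bub1 to kinetochores, had 47.2, 26.9 and 39.6 CPM in YAP-SY, against 50.9, 57.6 and 53.6 CPM in YAP-S, the smallest change past the threshold (log2 fold change -0.51 ± 0.17, adjusted p 0.0338). The checkpoint protein Mad2l1 was 1.64-fold lower (adjusted p 0.0259). Ttk, the checkpoint kinase Mps1, had 6.39, 2.94 and 5.82 CPM in YAP-SY, against 6.56, 6.39 and 10.4 CPM in YAP-S and did not pass (log2 fold change -0.62 ± 0.37, adjusted p 0.202). Its highest YAP-SY tumor and its lowest YAP-S tumor were nearly equal.

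The chromosomal passenger complex, which holds Aurkb at centromeres and the midzone, was lower in all 3 of its other genes. Birc5 (survivin) had 7.77, 4.39 and 6.32 CPM in YAP-SY CCA, against 11.1, 11.2 and 14.6 CPM in YAP-S CCA (1.99-fold lower, adjusted p 0.0143). The scaffold Incenp was 2.4-fold lower and Cdca8 (borealin) 2.67-fold lower, and neither overlapped between the groups. Of the 6 genes of centromere and kinetochore, 4 fell. Ndc80, the microtubule-binding subunit of the complex named after it, had 2.18, 1.43 and 2.42 CPM in YAP-SY, against 6.76, 6.56 and 7.68 CPM in YAP-S (log2 fold change -1.80 ± 0.30, adjusted p 0.000884). Nuf2, which pairs with Ndc80, was 2.42-fold lower, and the kinetochore genes Cenpe and Cenpf were 2.11-fold and 2.55-fold lower. Spc25, a subunit of the same Ndc80 complex, had 10.5, 13 and 11.1 CPM in YAP-SY, against 10.5, 9.07 and 15.5 CPM in YAP-S, with a log2 fold change of -0.02 ± 0.26 (adjusted p 0.964). Cenpa, the histone of the centromere, had 7.77, 9.45 and 9.15 CPM in YAP-SY, against 13.2, 8.78 and 13.6 CPM in YAP-S (log2 fold change -0.43 ± 0.22, adjusted p 0.134). Spc25 and Cenpa were the 2 genes of the 40 whose groups overlapped.

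All 9 spindle motors and microtubule proteins fell (median -1.25 on the log2 scale). Prc1, which bundles the microtubules of the midzone, had the smallest p of the 40: it had 16.2, 9.42 and 13.9 CPM in YAP-SY CCA, against 42, 39.4 and 43.5 CPM in YAP-S CCA (3.16-fold lower, adjusted p 0.000428). Kif23, a motor of the central spindle, had 8.68, 4.47 and 6.71 CPM in YAP-SY, against 18.4, 19.7 and 19.8 CPM in YAP-S (2.91-fold lower, adjusted p 0.00152). The YAP-S values of both genes were close together and far above the YAP-SY values. Tpx2, the activator of Aurka on the spindle, was 2.63-fold lower, the depolymerase Kif2c 2.38-fold, and Kif11, the motor that pushes the spindle poles apart, 2.12-fold. Kif4, Kif20a, Nusap1 and Hmmr were 1.79-fold to 2.52-fold lower. In cytokinesis, Anln (anillin, of the contractile ring) was 2.52-fold lower and Ect2, which acts at the cleavage furrow, 1.6-fold lower. Mki67, the antigen used to count dividing cells, had 52.9, 39.2 and 45.1 CPM in YAP-SY, against 99.8, 106 and 118 CPM in YAP-S (2.35-fold lower, adjusted p 0.00289). Top2a, which untangles sister chromatids, had 29.4, 18.7 and 28.4 CPM in YAP-SY, against 72.8, 69.4 and 87.2 CPM in YAP-S (3-fold lower, adjusted p 0.00102). Foxm1, the transcription factor of the G2 wave, had 6.93, 3.44 and 6.98 CPM in YAP-SY, against 17.5, 17.6 and 22.1 CPM in YAP-S (3.29-fold lower, adjusted p 0.00139). In these 3 the groups did not overlap.

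**Figure D2:**
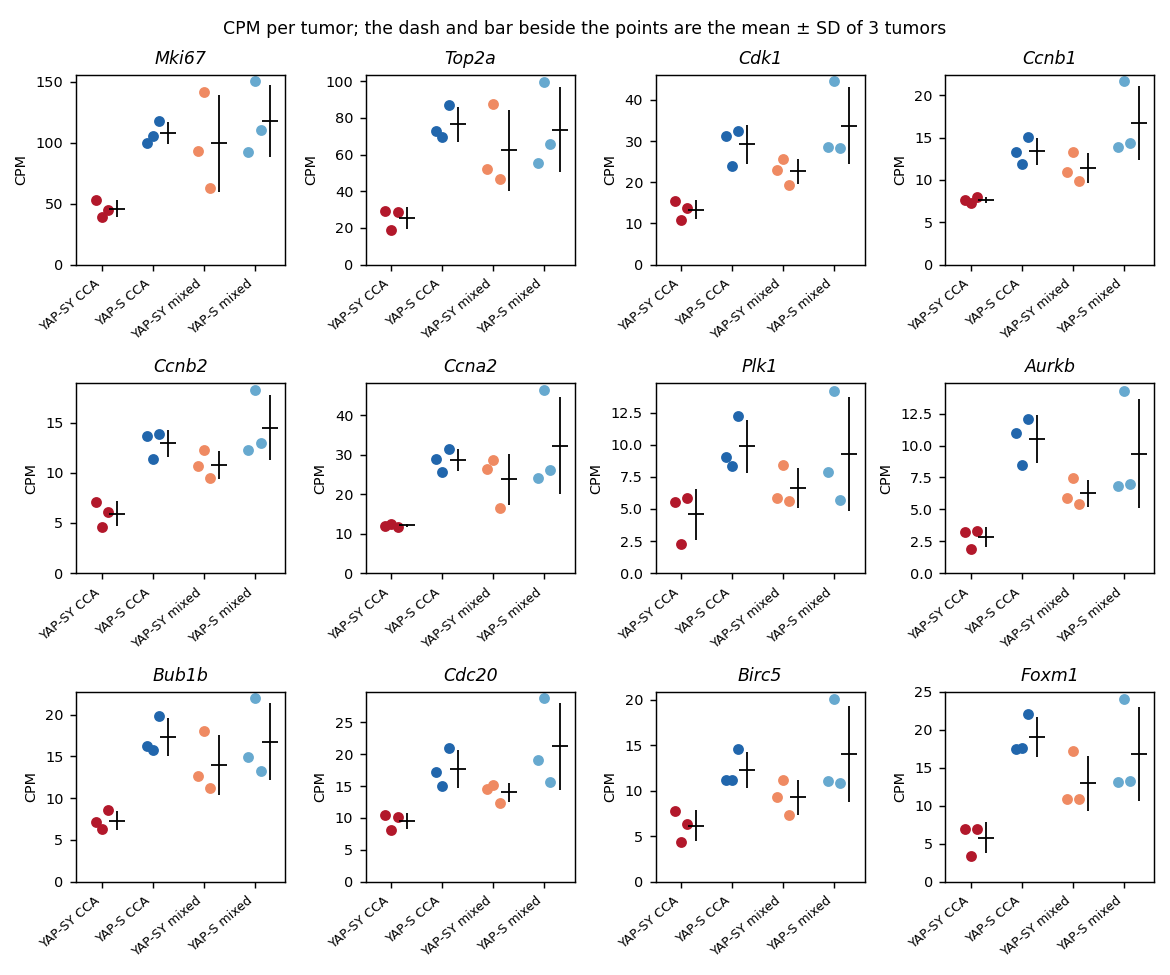
CPM of 12 of the genes in each tumor (points), by group, with the mean ± SD of 3 tumors beside the points. In all 12 genes the 3 YAP-SY CCA tumors lie below the 3 YAP-S CCA tumors, while the points of YAP-SY mixed and YAP-S mixed tumors overlap except in Cdk1, Ccnb1 and Cdc20.

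Of the 37 genes, 29 stayed past the threshold in every one of 21 other settings. Calls that were lost when single tumors were left out were those of Plk1, Bub3, Mad2l1, Cdc25c, Birc5, Nusap1, Ect2 and Hmmr. The count ran from 30, without YAP-SY CCA tumor 6 or without YAP-S CCA tumor 5, to 37. Over these fits 16.2% to 21.8% of all genes were lower. With library size alone in place of TMM the median log2 fold change of all genes was -0.56, and 44% of all genes were lower and 760 genes higher. Of the 40, 39 were then lower, with a median of -1.81. YAP-SY CCA tumor 1 had a count in 18207 genes, fewer than the 20440 to 24391 of the other tumors; without it 35 of the 40 were lower. The libraries do not mark strand, so reads from bases shared with genes on the opposite strand cannot be told apart. In the GENCODE M21 annotation 5 members share 10% or more of their exon bases with such genes. Kif20a shares 29.3% of its exon bases with Cdc23 and Ube2c 22.8% with Tnnc2. Kif4 shares 15.1% with Pdzd11, Cdc25c 12.7% with Gm3550 and Ccna2 12.5% with Exosc9. Over the 12 tumors, Cdc23 held 19945 counts (Kif20a 18149), Pdzd11 17219 (Kif4 6864) and Exosc9 15716 (Ccna2 17768). Tnnc2 held 8 counts (Ube2c 6313) and Gm3550 112 (Cdc25c 1533).

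Cell type markers moved with these genes in the same comparison, in which 20.8% of all genes tested were lower and 18.3% higher. Of 7 bile duct markers, 6 were lower (median log2 fold change -2.12), as were 6 of 7 markers of fibroblasts and stellate cells (-2.37) and 5 of 7 of T and NK cells (-1.91). Of 7 hepatocyte markers, 6 were higher (1.49). The fibroblast and stellate markers summed to 426 to 599 CPM in YAP-SY CCA tumors and 1858 to 2344 CPM in YAP-S CCA tumors, with no marker at 0. The T and NK markers summed to 3.51 to 6.79 CPM in YAP-SY CCA and 8.02 to 29.6 CPM in YAP-S CCA, also with no marker at 0. Among macrophage markers 3 of 7 were lower and 1 higher, among endothelial markers 1 of 7 lower and 2 higher, among neutrophil markers 3 of 6 tested were lower, among erythroid markers 1 of 5 tested was higher, and no B or plasma cell marker passed. With library size alone the bile duct and fibroblast lists were lower in 7 of 7 and hepatocyte markers higher in 5 of 7, and no endothelial or macrophage marker was higher. The part of these cell types in the lower mitotic genes was not tested.

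**Figure D3:**
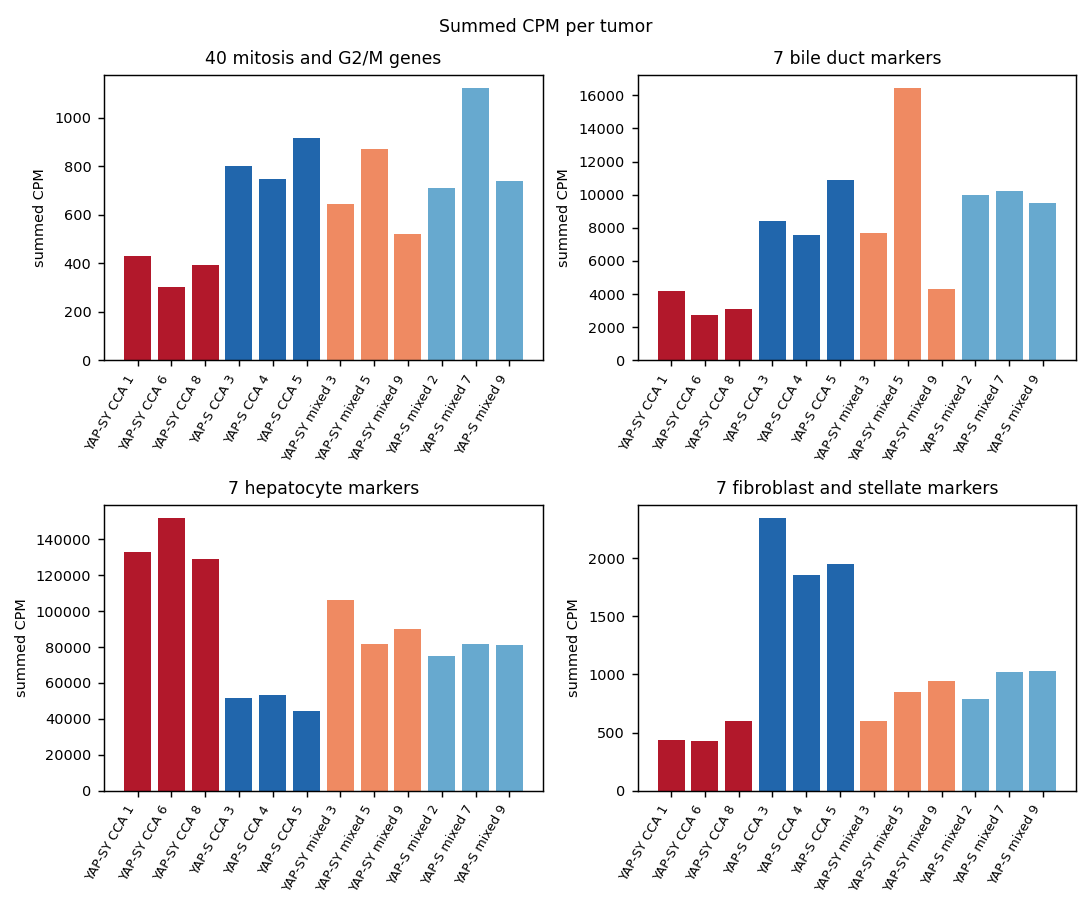
Summed CPM per tumor of the 40 mitosis and G2/M genes and of 7 markers each of bile duct, hepatocytes and fibroblasts with stellate cells; bars are single tumors, coloured by group. YAP-SY CCA tumors are the 3 lowest for the 40 genes (302 to 428 CPM) and for bile duct markers, and the 3 highest for hepatocyte markers.

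Other genes of the cell cycle gave the following counts in CCA, where 20.8% of all genes tested were lower and 18.3% higher. Of 48 further mitotic genes 40 were lower and 2 higher (median -1.17 on the log2 scale); the smallest p were those of Lmnb1, a lamin (-1.58), and Kif22, a chromosome motor (-1.60). The 2 higher were Pttg1 (securin, the inhibitor of separase; 0.72, adjusted p 0.0033) and the kinetochore gene Zwint (0.41, adjusted p 0.0125), named after their values were seen. With library size alone Pttg1 was at 0.16 and Zwint at -0.16, and neither passed. Of 30 S phase genes 21 were lower and 3 higher (median -1.02): Mcm10, of replication origins, was 1.13 higher on the log2 scale (adjusted p 0.00154), while Gins4 was 0.42 higher and at -0.15, not past the threshold, with library size alone. Lig1, a DNA ligase, and Mcm3, of the replicative helicase, fell by 1.79 and 1.72. Of 16 G1/S genes 6 were lower (median -0.73), among them the D-type cyclins Ccnd1 (-2.08) and Ccnd2 (-1.35). Subunits of the anaphase-promoting complex were lower in 1 of 15 (Anapc11, -0.77), with a median of -0.05, although 14 of 15 were lower with library size alone (median -0.63). Fzr1, an activator of that complex, was at -0.78 (adjusted p 0.0576).

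Of 13 MuvB and pocket protein genes 3 were lower and 4 higher, against 20.8% of all genes tested lower and 18.3% higher. The B-Myb gene Mybl2 fell by 2.34 and the pocket protein gene Rbl1 (p107) by 1.43. The pocket protein gene Rbl2 (p130), which acts in resting cells, was 0.66 higher (adjusted p 0.00137), and Lin54, Rbbp4 and Lin52 of MuvB were 0.45 to 0.50 higher. With library size alone none of these 4 was past the threshold, and Lin54, Rbbp4 and Lin52 were at -0.06, -0.12 and -0.10. Of 8 genes of CDK inhibitors 6 were lower (median -0.92) and 0 higher. Cdkn1a (p21), an inhibitor that p53 induces, was at 35.7 ± 1.56 CPM in YAP-SY CCA tumors and 105 ± 15.2 CPM in YAP-S CCA tumors (SD, n = 3), a log2 fold change of -1.55 (adjusted p 0.000106 by edgeR). Cdkn2b (p15) was at 0.744 ± 0.236 CPM in YAP-SY and 4.16 ± 0.176 CPM in YAP-S (adjusted p 0.000427 by edgeR).

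Between YAP-SY mixed and YAP-S mixed tumors none of the 40 genes was called. Of the 40 genes, 0 passed with edgeR, DESeq2 or limma-voom, and 0% of all genes tested passed in either direction with edgeR; over all genes DESeq2 called 7 lower and 4 higher, and limma-voom 0. At an unadjusted p under 0.05, 7 of the 40 and 551 of 18318 genes were counted. The fitted log2 fold change was negative in 39 of the 40, with a median of -0.37, against 0.02 over all genes, and ran from -0.63 in Aurka to 0.01 in Kif23. Groups did not overlap, with YAP-SY lower, in 4 of the 40 (Cdk1, Ccnb1, Cdc20 and Bub3), against 4.05% of all genes. Cdk1 had 22.9, 25.6 and 19.4 CPM in YAP-SY mixed, against 28.5, 44.5 and 28.4 CPM in YAP-S mixed (log2 fold change -0.58 ± 0.21, adjusted p 0.999). Cdc20 had 14.5, 15.2 and 12.3 CPM in YAP-SY, against 19.2, 28.8 and 15.7 CPM in YAP-S (-0.60 ± 0.22, adjusted p 0.999). Ccnb1 had 11, 13.3 and 9.83 CPM in YAP-SY, against 13.9, 21.7 and 14.4 CPM in YAP-S (-0.55 ± 0.19, adjusted p 0.999). In each of the 3, YAP-S tumor 7 stood above the other 5 tumors.

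Aurka had the largest fold change of the mixed comparison, at 8.45, 10.8 and 7.13 CPM in YAP-SY mixed, against 12.5, 17.7 and 10.4 CPM in YAP-S mixed. Birc5 had 9.28, 11.1 and 7.38 CPM in YAP-SY, against 11.1, 20.1 and 10.8 CPM in YAP-S (-0.60 ± 0.28, adjusted p 0.999). Mki67 had 93.4, 142 and 63.1 CPM in YAP-SY, against 92.4, 150 and 110 CPM in YAP-S (-0.24 ± 0.25, adjusted p 0.999). In these 3 genes the groups overlapped, with YAP-SY tumor 5 high and YAP-SY tumor 9 low. Kif23 had 13.3, 21.8 and 11.2 CPM in YAP-SY, against 11.3, 18.5 and 16.3 CPM in YAP-S. Ccna2 had 26.3, 28.6 and 16.4 CPM in YAP-SY, against 24.1, 46.4 and 26.2 CPM in YAP-S, and Ccnb2 had 10.6, 12.3 and 9.52 CPM in YAP-SY, against 12.3, 18.3 and 13 CPM in YAP-S. Foxm1 had 10.8, 17.2 and 10.8 CPM in YAP-SY, against 13.2, 24 and 13.3 CPM in YAP-S. Each of these 4 overlapped between the groups as well. Plk1 had 5.85, 8.39 and 5.61 CPM in YAP-SY mixed, against 7.87, 14.2 and 5.7 CPM in YAP-S mixed. Aurkb had 5.92, 7.47 and 5.45 CPM in YAP-SY mixed, against 6.82, 14.3 and 6.96 CPM in YAP-S mixed. Bub1b had 12.7, 18 and 11.2 CPM in YAP-SY mixed, against 15, 22 and 13.3 CPM in YAP-S mixed. In these 3, YAP-S tumor 7 was the highest and the groups overlapped. Besides Kif23, the smallest fold changes were those of Cenpe (-0.12 ± 0.28) and Incenp (-0.15 ± 0.26). The members' median log2 fold change moved with single tumors: it was -0.06 without that tumor, -0.22 without YAP-SY mixed tumor 9 and -0.58 without YAP-SY mixed tumor 5. Of the cell cycle lists, none had a member past the threshold in mixed tumors; their medians ran from -0.23 (48 further mitotic genes) to -0.01 (8 genes of CDK inhibitors).

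Whether the YAP-SY effect differed between the histologies was tested as an interaction. The difference (the log2 fold change in CCA minus that in mixed tumors) was negative in 38 of the 40 genes, with a median of -0.83, against 0.01 over all genes tested. It passed in 5 genes, all more negative in CCA, against 10.2% of all genes more negative and 5.02% more positive, a share of members close to that background. The 5 were Ndc80 (-1.60 ± 0.42, adjusted p 0.0256), Kif23 (-1.55 ± 0.40, adjusted p 0.0239), Prc1 (-1.39 ± 0.34, adjusted p 0.0195), Top2a (-1.34 ± 0.38, adjusted p 0.0345) and Cdc25b (-1.28 ± 0.37, adjusted p 0.0366). By the coordinates in the tumor table (mm10), Prc1 (ENSMUSG00000038943) lies at chr7:80294450-80316259, Ndc80 (ENSMUSG00000024056) at chr17:71496100-71526857 and Kif23 (ENSMUSG00000032254) at chr9:61917280-61946799. In mixed tumors, Ndc80 had 3.82, 6.59 and 4.05 CPM in YAP-SY, against 3.94, 7.57 and 5.11 CPM in YAP-S. Prc1 had 29.7, 38.6 and 21.5 CPM in YAP-SY mixed, against 29.9, 46 and 31.9 CPM in YAP-S mixed. Top2a had 52, 87.7 and 46.8 CPM in YAP-SY mixed, against 55.6, 99.6 and 65.7 CPM in YAP-S mixed. The mixed groups overlapped in all 3, where the CCA groups did not. Cdc25b had 3.82, 5.37 and 4.6 CPM in YAP-SY mixed, against 4.16, 7.49 and 4.92 CPM in YAP-S mixed. Espl1 had a larger difference than Prc1 but a wider error (-1.52 ± 0.50, adjusted p 0.0566). Ccnb1 (-0.26 ± 0.27), Spc25 (0.23 ± 0.37) and Cenpa (0.00 ± 0.31) had the smallest differences.

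The number of genes past the threshold in this test moved with single tumors. The share of all genes more negative in the same fit follows in brackets. The number was 19 without YAP-S mixed tumor 7 (9.27%), 9 without YAP-SY mixed tumor 9 (9.36%) and 8 without YAP-SY CCA tumor 8 (10.3%). It was 6 without YAP-SY CCA tumor 1 (9.43%) and 5 without YAP-SY mixed tumor 3 (10.8%). Without YAP-S CCA tumor 3 (7.77%) or 4 (6.32%) it was 3. Dropping YAP-SY CCA tumor 6 (7.66%) or else YAP-S mixed tumor 9 (6.72%) gave 2. Dropping YAP-S CCA tumor 5 (5.99%) or else YAP-SY mixed tumor 5 (7.07%) gave 1. It was 0 without YAP-S mixed tumor 2 (4.52%). Prc1 stayed past the threshold in 11 of the 12 fits that left out a tumor and Kif23 in 9, against 7 for Ndc80, 5 for Top2a and 3 for Cdc25b. With library size alone, 24 of the 40 passed, but 22.8% of all genes were then more negative, and the median of all genes was -0.51. In the main fit 10.2% of all genes tested were more negative and 5.02% more positive. There bile duct markers were more negative in 3 of 7 (median difference -2.25) and hepatocyte markers more positive in 5 of 7 (1.21). Fibroblast and stellate markers were more negative in 6 of 7 (-2.12), T and NK markers in 4 of 7 (-2.80) and macrophage markers in 1 of 7 (-0.73); their part in the result was not tested.

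**Figure D4:**
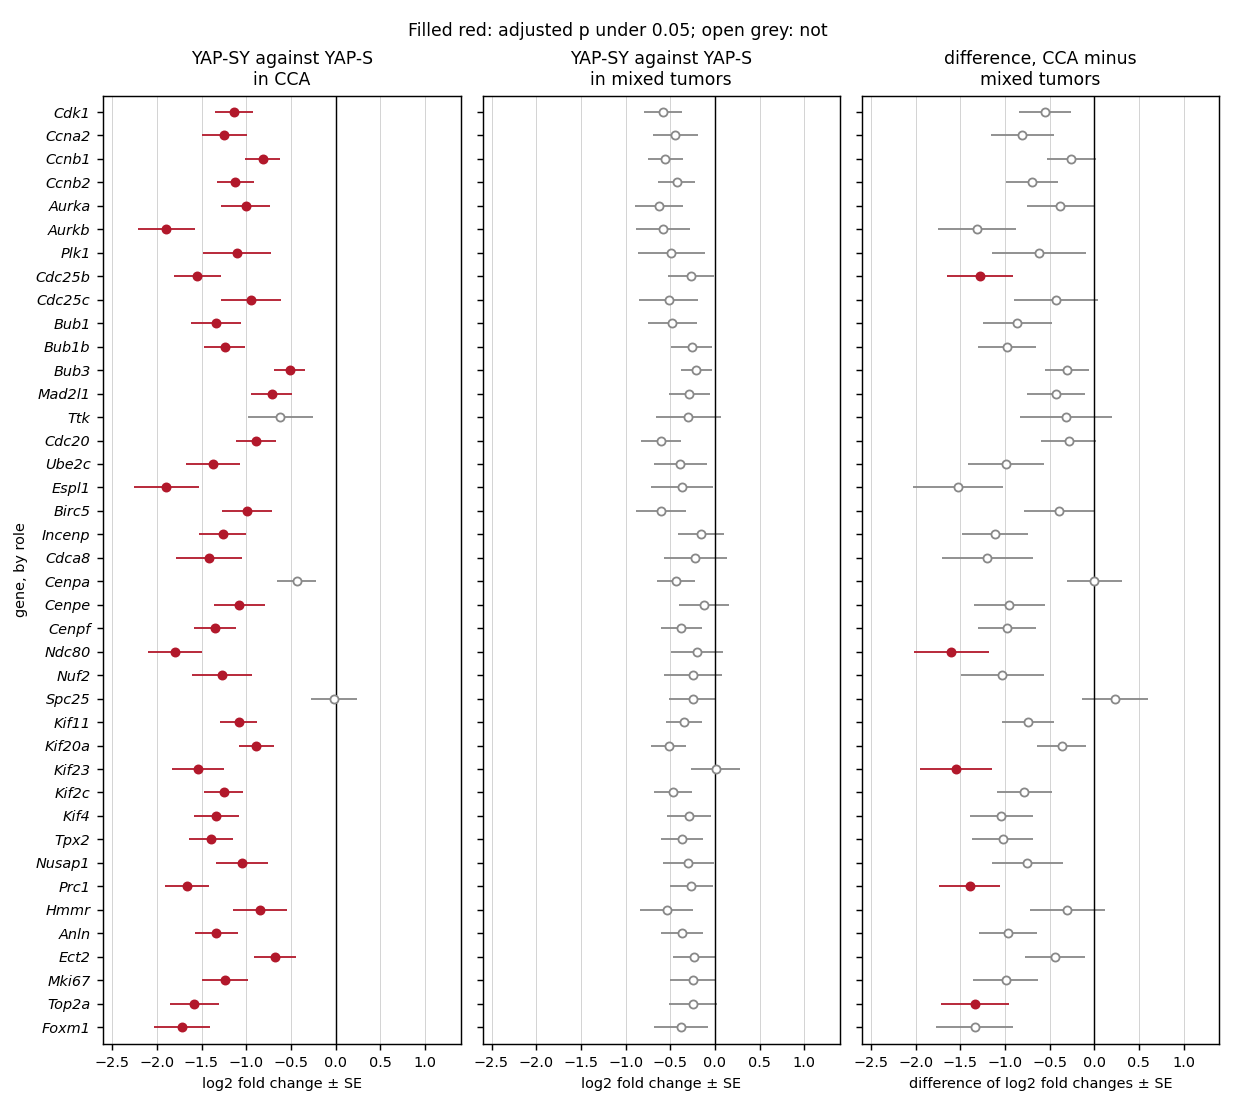
Log2 fold change ± SE of the 40 genes (rows, by role) for YAP-SY against YAP-S in CCA (left), in mixed tumors (middle) and for the difference of both (right); filled red points have an adjusted p under 0.05. In CCA 37 points are red and lower, in mixed tumors none is red, and 5 differences are red.

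Within the YAP-SY model, CCA tumors were compared with mixed tumors. All 40 genes had a negative log2 fold change, with a median of -0.90, against -0.01 over all genes. Of these 11 passed, all lower in CCA, against 2.7% of all genes lower and 0.207% higher: Top2a (-1.29), Ndc80 (-1.27), Kif23 (-1.22), Prc1 (-1.18), Mki67 (-1.12), Kif4 (-1.08), Cenpf (-1.03), Anln (-1.01), Tpx2 (-0.99), Kif11 (-0.93) and Ccnb2 (-0.86). Their adjusted p ran from 0.0304 to 0.0476 (edgeR), just inside the threshold. The groups did not overlap in 30 of the 40, against 12.1% of all genes. Mki67 had 52.9, 39.2 and 45.1 CPM in YAP-SY CCA, against 93.4, 142 and 63.1 CPM in YAP-SY mixed (adjusted p 0.0416). Kif11 had 9.9, 9.95 and 9.96 CPM in YAP-SY CCA, against 19.3, 23.1 and 14.6 CPM in YAP-SY mixed (adjusted p 0.0393). The CCA tumors were below the mixed tumors in both, and the mixed tumors differed more among themselves. Espl1 had the largest fold change, at -1.40 ± 0.36, and did not pass (adjusted p 0.0577); it had 2.7, 1.26 and 2.95 CPM in YAP-SY CCA, against 4.79, 7.47 and 6 CPM in YAP-SY mixed. Bub3, at -0.09 ± 0.17, had the smallest, ahead of Cenpa (-0.22 ± 0.22) and Spc25 (-0.24 ± 0.26), with 47.2, 26.9 and 39.6 CPM in YAP-SY CCA against 40.4, 42.5 and 38.5 CPM in YAP-SY mixed tumors.

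The number of genes called here moved with single tumors and with the tool. It was 0 without YAP-SY CCA tumor 1, 6 or 8, where 0.545%, 0% and 1.64% of all genes were lower. It was also 0 without YAP-S CCA tumor 3 (1.15%) or 4 (1.13%) and without YAP-SY mixed tumor 5 (0.593%). Without YAP-S CCA tumor 5 (1.25%) it was 2, without YAP-S mixed tumor 9 (1.71%) 3 and without YAP-SY mixed tumor 3 (2.84%) 4. It was 8 without YAP-S mixed tumor 2 (2.38%). But it was 17 without YAP-SY mixed tumor 9 (2.97%) and 17 without YAP-S mixed tumor 7 (2.12%). It was 0 with limma-voom, which called 0.218% of all genes lower, and 25 with DESeq2, which called 7.55%. In the main fit, where 2.7% of all genes were lower, bile duct markers were lower in 2 of 7 (median -1.50). Fibroblast and stellate markers were lower in 1 of 7 (-0.98), and no hepatocyte or T and NK marker passed. The part of these cell types was not tested.

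Within the YAP-S model, CCA and mixed tumors did not differ past the threshold in any of the 40 genes, with edgeR, DESeq2 or limma-voom. With edgeR 0% of all genes tested passed in either direction, and 0 of the 40 had an unadjusted p under 0.05, against 3636 of 18318 genes. Calls over all genes depended on scaling and tool: edgeR gave 20 lower and 97 higher with DESeq2 size factors and 29 and 682 with library size alone. DESeq2 gave 476 lower and 1037 higher, limma-voom 140 and 618, and limma-voom with quality weights 1622 and 1987, with none of the 40 among them. The median log2 fold change of the 40 was -0.07, 25 were negative, and values ran from -0.47 in Spc25 to 0.42 in Cdc25b. Spc25 had 10.5, 9.07 and 15.5 CPM in YAP-S CCA, against 15.8, 21.4 and 11.2 CPM in YAP-S mixed. Cdc25b had 7.68, 6.68 and 7.91 CPM in YAP-S CCA, against 4.16, 7.49 and 4.92 CPM in YAP-S mixed. Hmmr, which binds spindle microtubules, had 16.4, 10.3 and 22 CPM in YAP-S CCA, against 20.4, 29.7 and 15.3 CPM in YAP-S mixed (-0.43 ± 0.30, adjusted p 0.456). All 3 overlapped between the groups. The smallest fold changes were those of Tpx2 (0.03), Nuf2 (-0.03) and Kif4 (-0.04). Without YAP-S mixed tumor 7 the median of the 40 was 0.18. With edgeR no bile duct, fibroblast and stellate, T and NK or hepatocyte marker passed here. The median log2 fold changes of these lists were 1.08, 0.98, 1.45 and -0.60, in that order. Their relation to the 40 genes was not tested. The comparisons within a model share their tumors with those between the models, so their values stand side by side and are not independent.

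Across the 4 groups, YAP-SY CCA had the lowest mean in all 40 genes. YAP-S mixed had the highest mean in 25 and YAP-S CCA in 15. The order YAP-S mixed, YAP-S CCA, YAP-SY mixed, YAP-SY CCA, from high to low, was found in 22 genes and the order with the 2 YAP-S groups exchanged in 14. Of the neighbours in these orders, the YAP-S groups did not differ past the threshold in any of the 40 genes, nor did YAP-SY mixed and YAP-S mixed; YAP-S CCA and YAP-SY mixed were not tested against each other.

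Within a group the 40 genes mostly ranked the same tumors high and low. YAP-S mixed tumor 7 was the highest of its group in 40 of 40 genes, at 1122 CPM in sum against 708 and 737 CPM in tumors 2 and 9. YAP-SY mixed tumor 5 was the highest of its group in 39 genes and tumor 9 the lowest in 35, at 869 and 522 CPM, with tumor 3 at 646 CPM. YAP-S CCA tumor 5 was the highest of its group in 37 genes and tumor 4 the lowest in 33. YAP-SY CCA tumor 6 was the lowest of its group in 34 genes. Bile duct markers summed to 16434 CPM in YAP-SY mixed tumor 5, above 7676 and 4305 CPM in tumors 3 and 9, which is the same order as that of the 40 genes. YAP-S mixed tumors 2, 7 and 9 differed little in bile duct markers, at 9984, 10210 and 9497 CPM. YAP-SY CCA tumors 1, 6 and 8 held 4198, 2762 and 3100 CPM of these markers, in the order of the 40 genes. In YAP-S CCA tumors 3, 4 and 5, at 8421, 7585 and 10903 CPM, the order was that of the 40 genes as well. The median coefficient of variation over the 40 genes was 23.3% in YAP-SY CCA, 12.1% in YAP-S CCA, 25.5% in YAP-SY mixed and 28.4% in YAP-S mixed tumors. Members that move together across tumors are not independent of each other.

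SB1 cells, which grow in culture, held far more RNA of these genes than any tumor. The 40 genes took 0.755% to 0.898% of an SB1 library, against 0.0234% to 0.122% of a tumor library, and summed to 8964, 8502 and 7535 CPM. SB1 values come from raw counts in a table of their own and tumor values from counts that the authors corrected, so no test was made between them. The mean CPM in SB1 cells was 2.77 (Bub3) to 20.5 (Cdc25c) times that in YAP-S CCA tumors, with a median of 11.2 over the 40 genes. Mki67 had 744, 623 and 578 CPM in SB1 cells, Top2a 1219, 1075 and 947 CPM and Cdk1 411, 392 and 354 CPM. Spc25, at 57.1, 51.3 and 43.4 CPM in SB1 cells, was the second lowest of these ratios, at 4.33. Per kilobase of gene length, the levels in SB1 cells ran from 11.2 CPM (Ttk) to 120 CPM (Top2a), with a median of 45 CPM. In the tumors Bub3 was the highest of the 40 per kilobase in every group, at 18.4 CPM in YAP-SY CCA, 26.3 CPM in YAP-S CCA, 19.7 CPM in YAP-SY mixed and 22.8 CPM in YAP-S mixed tumors. The median per kilobase was 1.81 CPM in YAP-SY CCA, 4.06 CPM in YAP-S CCA, 3.18 CPM in YAP-SY mixed and 4.16 CPM in YAP-S mixed tumors.

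**Figure D5:**
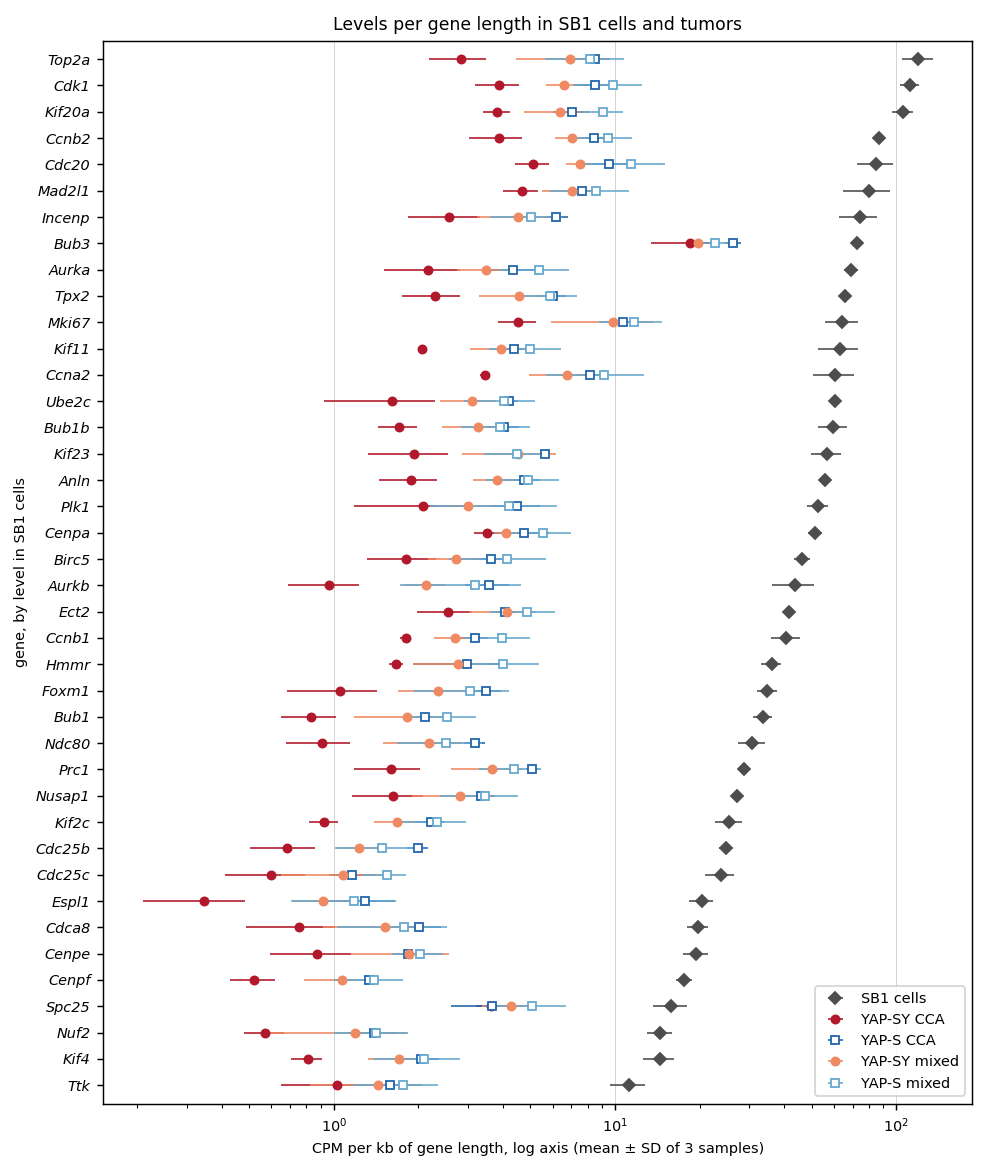
Level per gene length (CPM per kilobase, log axis; mean ± SD of 3 samples) of the 40 genes in SB1 cells and the 4 tumor groups, ordered by the level in SB1 cells. SB1 cells lie to the right of all tumor groups in every gene, and YAP-SY CCA is the lowest mean in every gene.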

How the data were processed

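Tumor nodules and cell lines were sequenced from poly(A) RNA with a TruSeq mRNA v2 kit, which does not mark strand, per the labels' protocols. STAR and mm10 are named in the submitters' processing notes; versions, counting tool and annotation release are not given in the sources used here. The authors deposited the tumor values as counts per gene that they had corrected in an unstated way, and the SB1 values as raw counts in another table, whose 3 columns that match no sample label were not used. Counts were taken as deposited. In edgeR 4.0.16 (R 4.3.3) genes were filtered with filterByExpr by group (minimum count 10, minimum total 15), which left 18318 of 43346 genes, and libraries were scaled by TMM. All 12 tumors entered 1 fit with 1 term per group; 5 contrasts were tested with glmQLFit and glmQLFTest, with Benjamini-Hochberg adjustment over all 18318 genes and a threshold of 0.05. The script was tested on simulated data. SE are from that fit; ± after CPM is the SD. CPM per kilobase uses the gene length in the table. Counting error alone would give narrower intervals than the spread between tumors, so none are printed.

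The 40 members and all gene and marker lists were chosen with earlier results of these data known. Values in every tumor were given for 12 fixed members and, per comparison, the 3 members with the largest and the 3 with the smallest log2 fold change, as far as the text needs them, with any member past the threshold where 5 or fewer were. Other lists are given as counts, medians and their 2 smallest p; genes named as higher were added after their values were seen. The lists were S phase, G1/S, further mitotic genes, anaphase-promoting complex, MuvB and pocket proteins, CDK inhibitors, and markers of hepatocytes, bile duct, fibroblasts and stellate cells, endothelium, macrophages, T and NK cells, B and plasma cells, neutrophils and erythroid cells. The labels do not say that tumors of a group came from separate animals, and p-values then measure only the spread between these samples. Numbers in the sample names were not treated as pairs. Alternatives were DESeq2 1.42.0, limma 3.58.1 (voom), other scaling, no filter, each tumor left out and a replicate block. Introduced YAP and AKT reads could not be separated from those of mouse Yap1 and Akt1 and were not used. Of the S phase list, 1 gene is counted but not reported by name here.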

Additional observations from a re-analysis of the deposited data

Results flagged for a closer look

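The effect of YAP-SY against YAP-S differed between CCA and mixed tumors past the threshold of the interaction test (edgeR, adjusted p under 0.05) in 5 of the 40 genes, a share near that of all genes tested, of which 10.2% were more negative in the same test. The difference of log2 fold changes, CCA minus mixed tumors, was -1.60 for Ndc80, -1.55 for Kif23, -1.39 for Prc1, -1.34 for Top2a and -1.28 for Cdc25b. Kif23 and Prc1 act at the midzone of the anaphase spindle, Ndc80 at the kinetochore, Top2a on chromatids and Cdc25b on Cdk1. Over the 21 other settings the difference stayed negative in each of the 5, and its adjusted p ran from 0.00218 to 0.0616 for Prc1, from 0.003 to 0.0701 for Kif23, from 0.00325 to 0.0723 for Ndc80, from 0.00809 to 0.0935 for Top2a and from 0.00806 to 0.0982 for Cdc25b. With 3 tumors a group, single tumors within groups were not tested as outliers.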

How the results depend on the processing

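In CCA 33 to 39 genes were called lower over the 9 settings that left the tumors in or removed 2 of them. In these settings 13.6% (no count filter) to 44% (library size alone, which gave the 39) of all genes were lower. The count was 30 to 37 over the 12 fits that left out 1 tumor, where 16.2% to 21.8% of all genes were lower. No called gene changed sign in any of the 5 comparisons. The difference between histologies (5 genes) was called in 24 genes with library size alone, 15 with the DESeq2 Wald test, 10 with no count filter, 3 with a term for the 4 tumors in the table's last columns (1 per group and at most 43188347 counts; chosen after seeing the data) and 22 without YAP-SY CCA tumor 1 and YAP-S mixed tumor 7 (also chosen after), with 0 to 19 when single tumors were left out. Over all genes tested, 22.8%, 13.8%, 7.12%, 7.2% and 9.04% were more negative in these 5 settings, against 10.2%. When single tumors were left out, 4.52% to 10.8% of all genes were more negative. CCA against mixed in YAP-SY (11 genes) was called in 27, 25, 21, 0 and 0 genes in the same 5 settings (10.9%, 7.55%, 2.89%, 0.742% and 0.317% of all genes, against 2.7%), in 0 with limma-voom, with or without quality weights, and in 0 to 17 when single tumors were left out. In YAP-SY, 0% to 2.97% of all genes were lower in CCA when single tumors were left out. The cause was not tested. With the replicate block, the number in the sample name, 34, 0, 6, 0 and 0 genes were called over the 5 comparisons, against 34, 0, 5, 0 and 0 with limma-voom without the block. Of all genes, 20.9%, 0%, 10.7%, 0.24% and 1.22% were lower or more negative with the block. Without it the shares were 20.7%, 0%, 10.5%, 0.218% and 0.764%. The consensus correlation of the block was 0.22. Same-numbered tumors deviated together by 0.18, 0.35 and 0.09, against -0.47 to 0.29 in 51 other pairs. Of 6 such tumors, 3 were closest to their own number. These values cannot decide whether the numbers pair tumors. The numbers were not treated as pairs because the labels do not say that they are. The median SB1 level moved by less than its spread with library size alone. The lowest count of a member in a tumor was 35.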
